A study of Mus musculus
Rattus norvegicus and Mus musculus and Rattus norvegicus with 95 samples.

Results

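The genes described here are those whose symbols belong to 9 families of solute carriers that move sugars, amino acids and monocarboxylates across membranes: Slc1a, Slc2a, Slc3a, Slc6a, Slc7a, Slc16a, Slc36a, Slc38a and Slc43a. They were picked by symbol, with earlier results of these data known, and number 78 of the 13926 mouse-rat homologues measured. RNA sequencing covered 8 bulk libraries of embryonic stem cells (ESCs) in G0/G1, 1 library per line, and 87 single cells. Allodiploid ESCs (AdESCs) carry 1 haploid set of chromosomes from mouse and 1 from rat, and the study set 4 of these lines (MR1-1, MR2-1, RM1-1 and RM2-1) against the rat lines DA25 and DA53 and the mouse lines F145 and F146. The single cells are 63 differentiated cells, all derived from those AdESC lines, and 24 undifferentiated AdESCs. The differentiated cells fall into 7 samples, each made up of the cells that 1 line gave in 1 type. Embryoid bodies (EBs), which are aggregates of differentiating stem cells, gave 12 cells of MR2-1 and 5 cells of RM1-1. Mouse chimaeras gave 4 somatic testis cells of RM1-1, 10 fibroblasts of MR1-1 and 8 neurons of RM1-1, and rat chimaeras gave 20 somatic testis cells and 4 lung cells of RM2-1. The AdESC samples held 6 (MR1-1), 8 (MR2-1), 4 (RM1-1) and 6 (RM2-1) cells. No label gives the animals' ages or how many animals were used.

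Solute carriers decide which nutrients a cell can take up. Glucose enters through facilitative transporters of the Slc2a family. Cationic amino acids such as arginine and lysine use part of the Slc7a family, and glutamine and other neutral amino acids use Slc1a5 and the sodium-coupled Slc38a family. Other Slc7a light chains reach the membrane only when paired with the heavy chain Slc3a2 or Slc3a1, and large neutral amino acids such as leucine use the pair Slc7a5 and Slc3a2. Pluripotent stem cells are known for a high demand for glucose and for glutamine, and mouse ESCs for their dependence on threonine.

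The values are FPKM, which scale fragments to transcript length and library size, so levels may be compared between genes. Read depth is unknown. All genes of a bulk library summed to 312695 to 377664 FPKM and those of a single cell to 213045 to 411555 FPKM. A list of pluripotency genes summed to 0.0685 to 47.1 FPKM in the differentiated samples, against 587 to 865 FPKM in the AdESC samples. Some libraries carried markers of other types or stood apart. The RM1-1 testis sample had Gap43 at 235 FPKM and the astrocyte gene Aqp4 at 8.52 FPKM, with 8 of 11 neuron genes at 1 FPKM or more, which the RM1-1 neurons also had (Gap43 at 224 FPKM, Aqp4 at 8.99 FPKM). Of 7 Sertoli genes measured it had 2 at 1 FPKM or more, and the RM2-1 testis sample had 3. The MR2-1 EB, fibroblast and lung samples also had 3, neurons 2, the RM1-1 EB sample 1 and the AdESC samples 1 or 2. The count thus does not mark testis samples. Of the Sertoli genes, Clu was 287 FPKM in the RM1-1 testis sample, 328 in the RM2-1 testis sample and 130.0 in neurons, and Wt1 was at 0, 9.30 and 0.00806 FPKM in the same order. In lung cells Clu was 2617 and Wt1 4.24 FPKM, and in EBs of MR2-1 Clu was 1330 and Wt1 0.0823 FPKM. The lung sample had 0 of 9 lung epithelial genes at 1 FPKM or more and Epcam, Cdh1 and Sftpc at 0, with the steroidogenic gene Cyp11a1 at 1028 FPKM, and the fibroblast sample had Epcam at 82.7 FPKM beside 10 of 12 fibroblast genes at 1 FPKM or more. The RM2-1 testis sample had 12 of these 12, and lung cells and EBs of MR2-1 had 9. Smooth muscle genes (4 measured) summed to 5145 FPKM in the RM2-1 testis sample and 3108.5 in lung cells. They summed to 73.4 to 936 FPKM in the other differentiated samples and 3.24 to 8.11 in AdESC samples. Fibroblast genes summed to 36.6 to 204 FPKM in the bulk AdESC lines, 9.20 to 10.2 in the rat lines and 263 (F146) to 2113 (F145) in the mouse lines. Of these genes, Col1a2, Col3a1, Dcn, Lum and Thy1 were listed at 0 in both rat lines. There a lacking rat gene model cannot be told apart from lacking transcripts, which limits the rat sums. No label says whether the lines were cultured or sequenced apart, so the p-values cover no more than the spread among the samples at hand.

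A few transporters carried most of the transcripts. The 78 genes summed to 1139 to 1825 FPKM in the bulk libraries, which was 0.364% to 0.530% of all FPKM, and the 5 highest genes of a library made up 64.6% to 74.6% of that. Averaged over the 8 libraries, the levels were 315 FPKM for the glucose transporter Slc2a1 and 265 FPKM for the glucose transporter Slc2a3. They were 155 FPKM for the heavy chain Slc3a2, 136 for the arginine and lysine transporter Slc7a3, 108 for the leucine transporter Slc7a5 and 67.9 for the neutral amino acid transporter Slc38a2. At 1 FPKM or more, 21 genes were seen in every bulk library and 47 in at least 1, and 31 were below it in all 8. Among single-cell samples 52 genes reached 1 FPKM in at least 1 sample and 10 in every sample. Below 1 FPKM in every library and sample were 21 genes, among them the renal Slc6a18 and Slc7a13, which were listed at 0 in all 8 bulk libraries. The fits below tested the 37 members with a mean of at least 1 FPKM in bulk, so counts describe these and not the other 41.

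Rat and mouse lines differed at many of these genes. In rat against mouse ESCs, 9 of 37 members tested were higher and 6 were lower (limma, Benjamini-Hochberg adjusted p below 0.05), beside 14.1% of all 8794 genes tested that were higher and 12.6% that were lower. The median log2 difference, which is the fitted change of log2(FPKM + 1), was 0.77 for the members (0.80 without the 3 that were at 0 throughout a group) and 0.08 for all genes. With libraries scaled by their upper quartile the median of all genes moved to -0.19, a shift of -0.27, and the split of all called genes moved from 1239 higher and 1104 lower to 886 and 1499. Among the members that scaling gave 7 higher and 6 lower. Without DA53 the count of members called was 9, and with the other bulk libraries left out in turn it was 10 to 17.

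AdESC lines differed from rat lines at 5 of the 37 members, of which 2 were higher and 3 lower, beside 5.79% and 3.91% of all genes. They differed from mouse lines at 4 members, all higher, beside 2.71% of all genes higher and 1.18% lower. At an unadjusted p below 0.05 in limma, 6 members were higher and 4 lower than in mouse lines. The members' median log2 difference was -0.47 against rat lines (-0.53 without the 3 at 0 throughout a group), where all genes had -0.11, and 0.19 against mouse lines, where all genes had -0.01. The 2 comparisons share the AdESC libraries, and both parental sets enter the fit. No source used here gives the step that merged the reads of both species into 1 AdESC value per gene, and every AdESC level depends on it. Scaling by the upper quartile moved the median of all genes against rat lines from -0.11 to 0.20 and the split of all called genes from 509 higher and 344 lower to 752 and 165, and the members' split from 2 and 3 to 3 and 2. Against rat lines the count was 2 without DA25 or without DA53 and 8 without MR1-1. Against mouse lines it was 1 without DA25, DA53 or MR2-1 and 2 without MR1-1, RM1-1 or RM2-1. In bulk RNA, fewer cells that express a gene and less RNA per cell cannot be told apart.

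**Figure D1:**
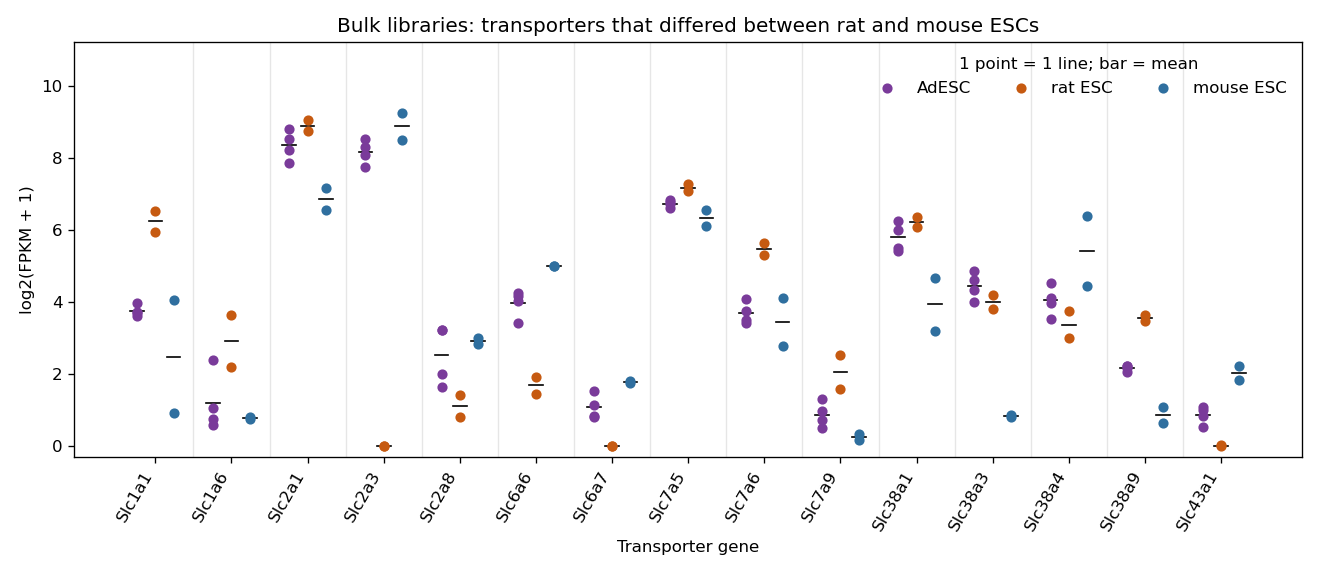
Level of the 15 transporter genes that differed between rat and mouse ESCs, as log2(FPKM + 1) on the y axis, by gene on the x axis. Each point is 1 line (4 AdESC, 2 rat, 2 mouse) and each bar the mean of its group; the AdESC points of Slc38a3 lie with the rat points, those of Slc6a6 lie between the parents, and Slc2a3 is at 0 in both rat lines.

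The 2 main glucose transporters had listed levels that differed by species. Slc2a3 (chromosome 6, 122727809 to 122802363 in the RefSeq annotation of GRCm38.p6), a high-affinity transporter best known from neurons, had 315 FPKM in the AdESC line MR1-1, 266 in MR2-1, 213 in RM1-1 and 364 in RM2-1, was listed at 0 in both rat lines and had 360 and 604 FPKM in the mouse lines F145 and F146. It was the only member listed at 0 in 1 species with a mean of at least 10 FPKM in the other. A lacking rat gene model and lacking rat transcripts cannot be told apart in the table, so no fold is given, and 1273 genes in all were listed at 0 in both rat lines and not in both mouse lines. Among AdESC lines RM2-1 lay just above F145 and the other 3 lines below both mouse lines. AdESCs against mouse lines did not pass the test (limma, log2 difference -0.71 ± 0.29 SE, adjusted p = 0.211).

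Slc2a1 (chromosome 4, 119108745 to 119137330), the widespread basal glucose transporter, was higher in rat than in mouse lines. It had 444 FPKM in MR1-1, 368 in MR2-1, 228 in RM1-1 and 297 in RM2-1, 524 and 429 in the rat lines DA25 and DA53, and 142 and 92.0 in the mouse lines F145 and F146. The mouse lines lay below all other lines. The log2 difference was 1.499 ± 0.30 for AdESC against mouse (limma adjusted p = 0.0284) and 2.05 ± 0.35 for rat against mouse (adjusted p = 0.00231). For AdESC against rat it was -0.55 ± 0.30 and did not pass (adjusted p = 0.283). The AdESC call against mouse was lost in 6 of 13 alternatives (adjusted p 0.0234 to 0.127), among them those without F146, DA25, DA53 or MR2-1.

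As a share of all Slc2a transcripts, Slc2a1 made up 44.1% to 58.2% in the AdESC lines, 99.3% and 99.6% in the rat lines and 27.7% and 13.1% in the mouse lines. Slc2a3 made up 41.2% to 54.2% in AdESCs and 70.6% and 85.9% in the mouse lines. The summed level of the family was 446 to 763 FPKM in AdESCs, 528 and 431 in rat lines and 510 and 704 in mouse lines. Between AdESC and mouse lines the sums overlapped while the shares did not. The rat shares and sums take Slc2a3 as 0, and they cannot be read if a rat gene model is lacking. Slc2a8, an intracellular transporter, had 2.12, 8.32, 3.00 and 8.34 FPKM in the AdESC lines in the same order. It was lower in rat than in mouse lines, at 1.68 and 0.73 FPKM in DA25 and DA53 against 6.92 and 6.15 FPKM in F145 and F146 (-1.80 ± 0.56, adjusted p = 0.0382). That call was lost in 5 of 12 alternatives (adjusted p 0.0203 to 0.212), which included leaving out any of the 4 parental lines.

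**Figure D2:**
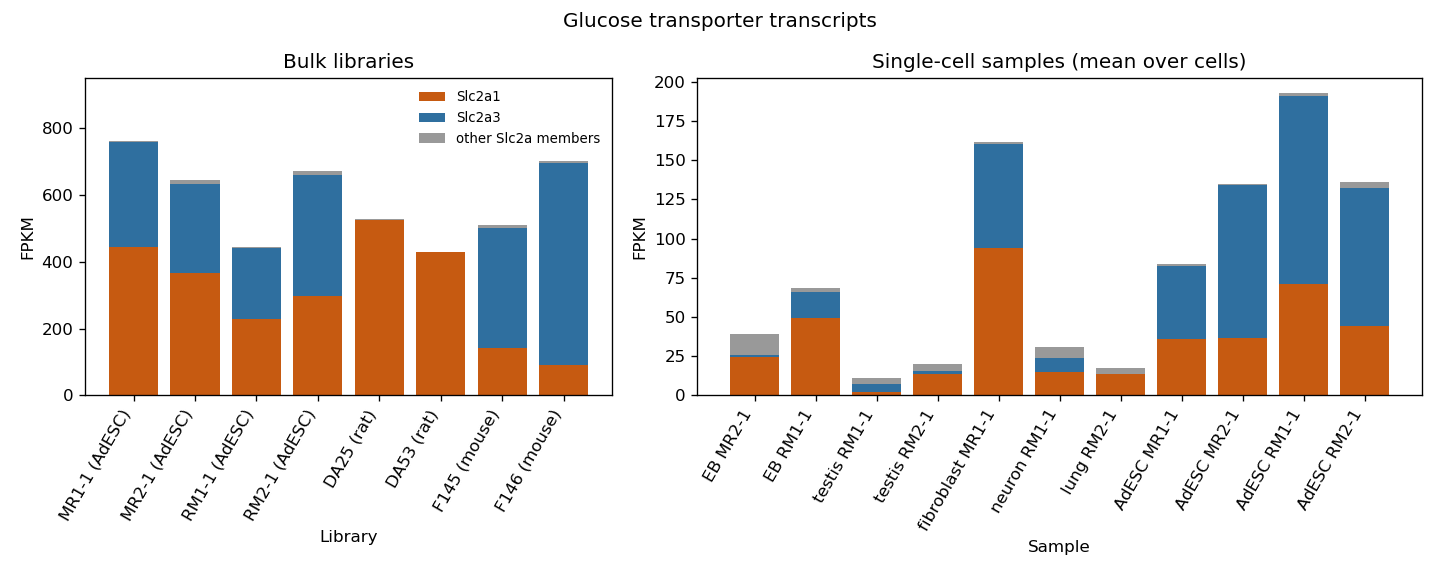
Level in FPKM (y axis) of Slc2a1, Slc2a3 and all other Slc2a members, stacked, in each bulk library (left) and each single-cell sample (right, mean over cells); the 2 panels have their own scales and come from tables normalized separately. Rat libraries show Slc2a1 alone, mouse libraries mostly Slc2a3 and AdESC libraries both, and 6 of 7 differentiated samples have a shorter stack than every AdESC sample, the fibroblast sample being the exception at 162 FPKM. In rat libraries a lacking Slc2a3 gene model cannot be told apart from lacking transcripts.

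Glutamate and neutral amino acid exchangers of the Slc1a family were tested for 4 of 7 members, of which 2 were higher in rat than in mouse lines and none lower. Of all 8794 genes tested, 14.1% were higher and 12.6% lower. Slc1a1 (chromosome 19, 28835135 to 28913960), a glutamate and cysteine transporter, had 11.18 FPKM in MR1-1, 14.8 in MR2-1, 12.2 in RM1-1 and 12.0 in RM2-1, 91.6 and 60.6 in DA25 and DA53, and 0.88 and 15.5 in F145 and F146. The AdESC lines lay close together and below both rat lines (-2.49 ± 0.66, adjusted p = 0.0416). The mouse lines differed widely from each other but did not reach the rat range (rat against mouse 3.76 ± 0.76, adjusted p = 0.00554). The AdESC call was lost in 10 of 13 alternatives (adjusted p 0.000562 to 0.272), including each AdESC or rat line left out. Slc1a6, a glutamate transporter known from cerebellar Purkinje cells, was 0.49 to 4.23 FPKM in AdESCs. It had 3.56 and 11.4 FPKM in the rat lines against 0.75 and 0.67 FPKM in the mouse lines (2.14 ± 0.64, adjusted p = 0.0323). Slc1a6 averaged 0.707 FPKM in the mouse lines and passed the filter of 1 FPKM through the other lines. Its call was lost in 5 of 12 alternatives, which were no filter on low values, upper-quartile scaling and leaving out DA53, F145 or F146 (adjusted p 0.0106 to 0.245). Slc1a5, the main glutamine exchanger of proliferating cells and the highest of the family in bulk, had 44.1 ± 16.2 FPKM in AdESCs, 48.8 ± 3.79 in rat and 44.3 ± 20.4 in mouse lines (SD, n = 4, 2 and 2) and passed no test.

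Among the heavy chains and their light chains, 6 of 12 members were tested, and 3 were higher in rat lines and none lower, beside 14.1% and 12.6% of all genes. Slc7a6, a light chain that exchanges arginine and leucine, had 12.4 FPKM in MR1-1, 16.0 in MR2-1, 10.3 in RM1-1 and 9.59 in RM2-1, 48.9 and 38.6 in DA25 and DA53, and 5.86 and 16.3 in F145 and F146. The AdESC lines lay within the mouse range and below both rat lines (-1.79 ± 0.38, limma adjusted p = 0.0157), and rat lay above mouse lines (2.03 ± 0.43, adjusted p = 0.00727). Slc7a5, the leucine transporter, had 96.7 to 111 FPKM in the AdESC lines, 153 and 134 in the rat lines and 68.4 and 93.0 in the mouse lines. The AdESC levels lay between the parental ranges without overlap and passed neither test, while rat against mouse passed (0.83 ± 0.25, adjusted p = 0.0346). Slc7a9, a cystine and dibasic amino acid light chain of the kidney, was low, at 0.40 to 1.48 FPKM in AdESCs, and had 1.98 and 4.76 FPKM in rat against 0.25 and 0.12 FPKM in mouse lines (1.81 ± 0.44, adjusted p = 0.0130). Its mean was 0.868 FPKM in AdESCs and 0.185 FPKM in mouse lines, so it reached the 1 FPKM needed for a test through the rat lines. The heavy chain Slc3a2 averaged 145.5 ± 17.3 FPKM in AdESCs, 208 ± 24.3 in rat and 121 ± 44.2 in mouse lines and passed no test. The Slc7a5 call between the parents was lost in 7 of 12 alternatives (adjusted p 0.0229 to 0.189), among them those without DA25, DA53, F145, MR2-1 or RM1-1, and those of Slc7a6 were lost without DA25 (adjusted p 0.00211 to 0.0635 for rat against mouse, 0.00468 to 0.163 for AdESC against rat) and, for AdESCs, without DA53.

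Of the sodium-coupled neutral amino acid transporters, 7 of 9 were tested. Between the parents 3 were higher and 1 lower in rat than in mouse lines, and the same 3 were higher in AdESC than in mouse lines. Of all genes, 14.1% were higher and 12.6% lower between the parents, and 2.71% were higher in AdESC than in mouse lines. Slc38a3 (chromosome 9, 107651154 to 107668968), a glutamine and histidine transporter of liver and brain, had 14.9 FPKM in MR1-1, 23.5 in MR2-1, 19.0 in RM1-1 and 28.2 in RM2-1. It had 12.8 and 17.3 FPKM in the rat lines and 0.74 and 0.80 FPKM in the mouse lines. AdESC and rat levels overlapped, and both lay above the mouse lines. Slc38a3 averaged 0.773 FPKM in the mouse lines, so it passed the filter of 1 FPKM through the AdESC and rat lines. The log2 difference was 3.62 ± 0.31 for AdESC against mouse (adjusted p = 0.000294), kept in all 13 alternatives, and 3.17 ± 0.36 for rat against mouse (adjusted p = 0.000207), kept in all 12.

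Slc38a1, a glutamine transporter, had 74.3 FPKM in MR1-1, 41.7 in MR2-1, 62.4 in RM1-1 and 44.4 in RM2-1, 67.02 and 81.2 in DA25 and DA53, and 24.5 and 8.16 in F145 and F146. Its AdESC and rat levels overlapped, and again both lay above the mouse lines (AdESC against mouse 1.85 ± 0.40, adjusted p = 0.0370; rat against mouse 2.29 ± 0.46, adjusted p = 0.00536). Slc38a9, a lysosomal transporter through which mTORC1 senses arginine, had 3.19, 3.44, 3.64 and 3.67 FPKM in the AdESC lines in that order, 11.4 and 9.97 in rat lines and 0.57 and 1.12 in mouse lines. Its mouse mean was 0.846 FPKM, so it passed the filter of 1 FPKM through the AdESC and rat lines. The 3 groups did not overlap, and AdESCs differed from each parent (against rat -1.38 ± 0.28, adjusted p = 0.0135; against mouse 1.30 ± 0.28, adjusted p = 0.0385). Against mouse lines both AdESC calls were lost in 10 of 13 alternatives (adjusted p 0.0183 to 0.149 for Slc38a1 and 0.0198 to 0.120 for Slc38a9), without any 1 of DA25, DA53, MR1-1, MR2-1, RM1-1 or RM2-1 and, for Slc38a9, F145 or, for Slc38a1, F146. Against rat lines the Slc38a9 call was lost without DA25 or DA53 (adjusted p 0.00950 to 0.165).

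Slc38a4, an imprinted transporter of liver and placenta, had 16.3 FPKM in MR1-1, 14.7 in MR2-1, 22.1 in RM1-1 and 10.6 in RM2-1, 12.4 and 6.97 in DA25 and DA53, and 20.6 and 82.3 in F145 and F146. The AdESC levels overlapped both parents, and rat lines lay below mouse lines (-2.04 ± 0.58, limma adjusted p = 0.0261). The size of the parental difference rested on F146, and without that line it was -1.06 with the call lost (adjusted p 0.00417 to 0.168 over 12 alternatives); the call was also lost without DA25 or DA53, with no filter on low values and with only the groups compared. Slc38a2, a transporter that rises when cells lack amino acids, varied more within the AdESC group than between groups, at 184 and 144 FPKM in MR1-1 and RM1-1 and 13.6 and 31.9 FPKM in MR2-1 and RM2-1. Slc7a3 split the same lines in bulk, at 227 and 289 FPKM in MR1-1 and RM1-1 and 33.96 and 13.2 FPKM in MR2-1 and RM2-1, beside 166 and 252 FPKM in rat and 82.8 and 22.98 FPKM in mouse lines. Neither passed a bulk test.

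Transporters of taurine, creatine and proline belong to the Slc6a family, of which 5 of 16 were tested. Slc6a6 (chromosome 6, 91684048 to 91759063), the taurine transporter, had 18.1 FPKM in MR1-1, 15.2 in MR2-1, 16.9 in RM1-1 and 9.75 in RM2-1, 2.80 and 1.73 in DA25 and DA53, and 31.1 and 30.8 in F145 and F146. The 3 groups did not overlap. Rat against mouse gave -3.31 ± 0.35 (adjusted p = 0.000151) and AdESC against rat 2.28 ± 0.31 (adjusted p = 0.00131), both kept in every alternative run, while AdESC against mouse did not pass (-1.03 ± 0.31, adjusted p = 0.0943). Slc6a7, a proline transporter of neurons, had 0.76 to 1.86 FPKM in AdESCs, was listed at 0 in both rat lines and had 2.39 and 2.51 FPKM in the mouse lines (adjusted p = 0.00641, lost without DA25 or DA53, 0.00111 to 0.0521 over 11 alternatives). For Slc6a7, as for Slc2a3, a lacking rat gene model is not told apart from lacking transcripts. Slc6a7 passed the filter of 1 FPKM through the mouse and AdESC lines. Slc6a8, the creatine transporter and the highest of the family, was 29.02, 128, 78.9 and 57.5 FPKM in the AdESC lines, 24.4 and 13.7 in rat and 33.1 and 26.2 in mouse lines. AdESCs lay above both rat lines without passing the test (1.76 ± 0.49, adjusted p = 0.0514).

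The remaining families gave 1 call. Slc43a1, a facilitator of leucine and other large neutral amino acids, had 0.45 to 1.12 FPKM in the AdESC lines. It had 0 and 0.01 FPKM in DA25 and DA53 against 2.52 and 3.64 FPKM in F145 and F146 (-2.01 ± 0.36, adjusted p = 0.00327). Its mean was 0.834 FPKM in AdESCs, so it reached the 1 FPKM needed for a test through the mouse lines. The lactate and pyruvate transporter Slc16a1 averaged 59.95 ± 11.3 FPKM in AdESCs, 67.4 ± 13.9 in rat and 38.8 ± 5.42 in mouse lines, and the lactate exporter Slc16a3 averaged 20.4 ± 11.9, 62.3 ± 21.5 and 25.4 ± 6.10 FPKM in the same order. None of the 5 Slc16a members tested passed in any bulk comparison (limma; 2 of the 5 had an unadjusted p below 0.05 for rat against mouse, 2 for AdESC against rat and 1 for AdESC against mouse). Slc43a3, a nucleobase transporter, was the highest of its family at 3.48 ± 2.76 FPKM in AdESCs, 5.50 ± 4.31 in rat and 4.62 ± 4.31 in mouse lines. The lysosomal Slc36a1 ranged from 3.45 to 7.06 FPKM over the 8 libraries. Of the 6 members lower in rat than in mouse lines, Slc2a3, Slc6a6, Slc6a7 and Slc38a4 were also called without F145. The Slc2a8 call was lost without it and Slc43a1 fell below the filter on low values. Fibroblast genes summed to 263 FPKM in F146, the 1 mouse line then left, against at most 10.2 FPKM in rat lines, so the part of other cells in the mouse levels was not tested. The rat sums keep the limit that some fibroblast genes may lack a rat gene model.

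Other genes of sugar and amino acid use, in 7 lists, gave 10 higher and 7 lower of 66 tested in rat against mouse lines, which is 15.2% and 10.6%, beside 14.1% and 12.6% of all genes. In AdESC against rat lines 3 were higher and 5 lower (4.55% and 7.58%, beside 5.79% and 3.91% of all genes). In AdESC against mouse lines 3 were higher and 0 lower (4.55% and 0%, beside 2.71% and 1.18% of all genes). Of 12 glycolysis genes tested, 4 were higher and 1 lower in rat than in mouse lines. Pgk1, a glycolytic kinase, averaged 2345 ± 424 FPKM in rat and 404 ± 57.2 FPKM in mouse lines (2.53 ± 0.31, adjusted p = 0.000387), and Pfkl, a phosphofructokinase, 144 ± 18.6 and 41.9 ± 14.4 FPKM (1.79 ± 0.33, adjusted p = 0.00351). In AdESC against rat lines 0 of the 12 were higher and 3 lower, and against mouse lines 1 was higher and 0 lower. Among 5 partner and regulator genes, Bsg, the chaperone of Slc16a1, was higher in rat lines (0.89 ± 0.26, adjusted p = 0.0284) and Txnip, which promotes removal of Slc2a1 from the membrane, was lower (-2.84 ± 0.79, adjusted p = 0.0243). AdESCs against rat lines had Bsg lower and the Slc2a1-binding Stom higher, and 0 of the 5 were called against mouse lines, with 0 at an unadjusted p below 0.05 in limma.

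Genes of glutamine, asparagine and proline synthesis gave 1 higher and 2 lower of 10 in rat lines. Pycr1, the last enzyme of proline synthesis, was higher (2.26 ± 0.30, adjusted p = 0.000606), and Aldh18a1, which starts that synthesis, was listed at 0 in both rat lines, with the same limit. Against rat lines AdESCs had 1 of these 10 higher, and against mouse lines 1 higher, which was Pycr1 (1.44 ± 0.26, adjusted p = 0.0189). Serine, glycine and threonine genes gave 1 higher and 2 lower of 10 in rat lines, including Phgdh, the first enzyme of serine synthesis (-1.83 ± 0.33, adjusted p = 0.00333), and 1 higher and 0 lower for AdESCs against each parent. Of 7 cystine and glutathione genes, 1 was higher and 1 lower in rat lines, and 0 were called for AdESCs against rat or mouse lines (2 and 1 at an unadjusted p below 0.05 in limma). Of 12 genes of amino acid sensing by mTORC1, 1 was higher in rat lines, Lamtor4 (1.58 ± 0.29, adjusted p = 0.00326), and 0 were called for AdESCs against rat or mouse lines (1 and 2 at an unadjusted p below 0.05). Of 10 genes of the amino acid stress response, 1 was higher in rat lines, the transcription factor Cebpg (2.04 ± 0.35, adjusted p = 0.00244), which was also the only one called lower in AdESC than in rat lines, and 0 were called against mouse lines (2 at an unadjusted p below 0.05).

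Differentiation was addressed with the single cells. Single cells are no replicates of a condition, so the mean FPKM over the cells of a sample was taken as its value, and 34 members averaged 1 FPKM or more across the 11 samples. In 7 differentiated against 4 AdESC samples 1 of 34 was higher and 6 were lower (limma, adjusted p below 0.05), beside 7.37% of all 8421 genes higher and 8.57% lower. The median log2 difference was -0.08 for these members (-0.23 without the 2 at 0 throughout a group) and 0.02 for all genes. The count was 4 without the AdESC sample of RM1-1 or of RM2-1 and 5 to 7 with any other sample left out. It was 6 without the RM1-1 testis sample, which carried neuron genes, and 7 without the lung sample.

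The largest fall was that of Slc7a3 (chromosome X, 101079146 to 101090452), which carries arginine and lysine. It had 0.0885, 3.28 and 29.8 FPKM as the lowest, median and highest of the 7 differentiated samples, against 175, 216, 339 and 228 FPKM in the AdESC samples of MR1-1, MR2-1, RM1-1 and RM2-1. Every differentiated sample lay below every AdESC sample, with the neuron sample the highest and the MR2-1 EB sample the lowest. At 1 FPKM or more, Slc7a3 was seen in 15 of 63 differentiated cells and in 24 of 24 AdESCs. The log2 difference was -5.62 ± 0.85 (limma adjusted p = 0.000392), kept in all 16 alternatives. The 4 single-cell AdESC levels did not show the split between lines seen in bulk, though the 2 tables were normalized separately.

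Slc2a3 fell too, at 0.0107, 5.01 and 66.6 FPKM as lowest, median and highest of the differentiated samples, against 46.8, 97.5, 120 and 88.5 FPKM in the AdESC samples of MR1-1, MR2-1, RM1-1 and RM2-1. The fibroblast sample, the highest, lay within the AdESC range, and the other 6 lay below it. The difference was -3.74 ± 0.87 (adjusted p = 0.00897), kept in all 16 alternatives, and 23 of 63 differentiated cells and 24 of 24 AdESCs had 1 FPKM or more. Slc2a1 did not pass the test, at 2.42, 15.2 and 93.9 FPKM as lowest, median and highest of the differentiated samples against 36.03, 36.5, 70.95 and 44.05 FPKM in the AdESC samples (-1.18 ± 0.66, adjusted p = 0.234). The Slc2a1 share of the family was 21.9% to 76.8% in the differentiated samples and 27.1% to 42.99% in the AdESC samples. Slc2a10 was listed at 0 in all 24 AdESCs and reached 12.6 FPKM in the MR2-1 EB sample, where 7 of 12 cells had 1 FPKM or more.

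**Figure D3:**
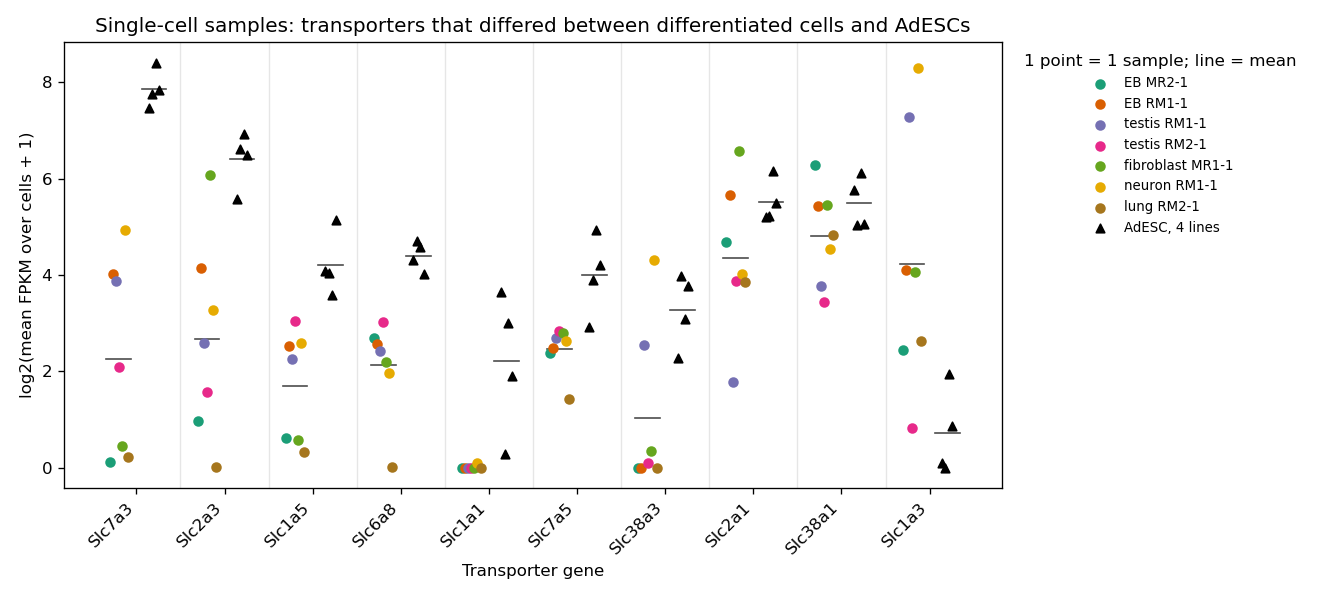
Level of the 10 transporter genes called in any single-cell comparison, as log2(mean FPKM over cells + 1) on the y axis, by gene on the x axis; each coloured point is 1 of 7 differentiated samples, each black triangle 1 of 4 AdESC samples and each line a group mean. Slc7a3, Slc6a8, Slc1a5, Slc7a5 and Slc1a1 have every differentiated sample below every AdESC sample, the last 2 narrowly. Slc1a3 runs the other way with the neuron and RM1-1 testis samples highest.

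The glutamine exchanger Slc1a5 (chromosome 7, 16781334 to 16798274) had 0.245, 3.76 and 7.29 FPKM as lowest, median and highest of the differentiated samples, against 15.9, 15.6, 11.0 and 34.1 FPKM in the AdESC samples of MR1-1, MR2-1, RM1-1 and RM2-1. The groups did not overlap (-2.51 ± 0.61, adjusted p = 0.0117), and the call was lost without the RM2-1 AdESC sample (adjusted p 0.00455 to 0.0566 over 16 alternatives). Slc1a1 was at 0 in 6 differentiated samples and at 0.07 FPKM in neurons, against 11.5, 0.22, 6.99 and 2.76 FPKM in the AdESC samples in that order. No differentiated cell of 63 and 6 of 24 AdESCs had 1 FPKM or more of Slc1a1, so its AdESC means rest on few cells (-2.20 ± 0.56, adjusted p = 0.0153, lost without MR1-1 or RM1-1 AdESCs, 0.00241 to 0.0662 over 16 alternatives). Slc1a1 averaged 0.0101 FPKM in differentiated samples, so it passed the filter of 1 FPKM through the AdESC samples.

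Slc1a3 (chromosome 15, 8634124 to 8710807), the glutamate transporter of astrocytes and radial glia, was the 1 member that rose. It had 0.76, 15.7 and 316 FPKM as lowest, median and highest of the differentiated samples, against 0.06, 0, 2.87 and 0.82 FPKM in the AdESC samples of MR1-1, MR2-1, RM1-1 and RM2-1. Neurons (316 FPKM) and the RM1-1 testis sample (154 FPKM) stood far above the rest, and the RM2-1 testis sample overlapped the AdESCs. The AdESC mean was 0.938 FPKM, so Slc1a3 passed the filter of 1 FPKM through the differentiated samples. All 8 neurons and all 4 RM1-1 testis cells had 1 FPKM or more, beside 27 of 63 differentiated cells and 3 of 24 AdESCs in all. The difference was 3.51 ± 1.14 (adjusted p = 0.0470) and was lost in 10 of 16 alternatives (adjusted p 0.0176 to 0.131), among them those without neurons, the RM1-1 testis sample, the fibroblasts, the RM1-1 EB sample or any of the 4 AdESC samples. Glial genes were seen in the same 2 samples, with Aqp4 at 8.99 FPKM in neurons and 8.52 in RM1-1 testis cells and at 0 in the other 5 differentiated samples and all AdESC samples; their part in the result was not tested.

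The creatine transporter Slc6a8 (chromosome X, 73673133 to 73682502) had 0.0152, 4.34 and 7.11 FPKM as lowest, median and highest of the differentiated samples, against 18.8, 25.2, 22.9 and 15.3 FPKM in the AdESC samples of MR1-1, MR2-1, RM1-1 and RM2-1. The groups did not overlap (-2.28 ± 0.53, adjusted p = 0.00893), and the call was kept in all 16 alternatives. Slc7a5 had 1.70, 5.22 and 6.12 FPKM as lowest, median and highest, against 6.55, 13.9, 29.8 and 17.5 FPKM in the AdESC samples in that order. Its groups were narrowly apart (-1.52 ± 0.46, adjusted p = 0.0352), and the call was lost without MR2-1, RM1-1 or RM2-1 AdESCs (adjusted p 0.00443 to 0.144 over 16 alternatives). Its heavy chain Slc3a2 was seen at 1 FPKM or more in all 63 differentiated cells and all 24 AdESCs, at 83.4 ± 24.1 FPKM in differentiated and 125 ± 40.1 FPKM in AdESC samples (SD, n = 7 and 4), and did not pass (limma adjusted p = 0.195). Slc38a2 was likewise seen in every cell, at 143 ± 74.1 FPKM in differentiated and 84.4 ± 18.5 FPKM in AdESC samples (adjusted p = 0.234).

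EB and testis samples, 2 of each, were set against the same 4 AdESC samples, which both comparisons share. In EBs 0 of 32 members tested were higher and 4 lower, beside 2.77% and 3.87% of all 8218 genes, and 2 members were higher and 7 lower at an unadjusted p below 0.05 in limma. Slc7a3 fell to 0.0885 and 15.2 FPKM in the MR2-1 and RM1-1 EB samples (-5.79 ± 0.85, adjusted p = 0.00216) and Slc2a3 to 0.96 and 16.6 FPKM (-3.85 ± 0.75, adjusted p = 0.0107), against the AdESC levels given above. Slc38a3 was at 0 in both EB samples, against 3.85, 14.8, 7.503 and 12.7 FPKM in the AdESC samples of MR1-1, MR2-1, RM1-1 and RM2-1 (adjusted p = 0.0332). It passed the filter of 1 FPKM through the AdESC samples, which averaged 9.71 FPKM. Slc1a5 was 0.52 and 4.78 FPKM in the EB samples (-2.64 ± 0.68, adjusted p = 0.0403). With the line as a replicate block, since both sides come from the same lines, 2 members were called, and the calls of Slc1a5 (adjusted p = 0.153) and Slc38a3 (adjusted p = 0.0514) were lost. The count was 1 without the MR2-1 EB sample, which left Slc7a3, and 2 without the AdESC sample of MR2-1, RM1-1 or RM2-1; over 13 alternatives the adjusted p ran from 0.0323 to 0.225 for Slc1a5 (lost in 10), 0.0204 to 0.123 for Slc38a3 (lost in 7) and 0.00251 to 0.0798 for Slc2a3 (lost in 2).

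In testis samples 0 of 32 members were higher and 5 lower, beside 6.19% and 6.12% of all genes, and 2 were higher and 10 lower at an unadjusted p below 0.05 in limma. Slc7a3 fell to 13.7 and 3.28 FPKM in the RM1-1 and RM2-1 testis samples (-4.88 ± 0.85, adjusted p = 0.00363) and Slc2a3 to 5.01 and 1.96 FPKM (-4.32 ± 0.75, adjusted p = 0.00363). Slc2a1 had 2.42 and 13.7 FPKM in the testis samples, below the AdESC range of 36.03 to 70.95 FPKM (-2.70 ± 0.59, adjusted p = 0.0118). Slc38a1 had 12.6 and 9.79 FPKM, below 31.9 to 68.2 FPKM in AdESCs (-1.90 ± 0.45, adjusted p = 0.0169), and Slc6a8 had 4.34 and 7.11 FPKM (-1.69 ± 0.49, adjusted p = 0.0450). With the replicate block 3 members were called, and Slc6a8 (adjusted p = 0.180) and Slc38a1 (adjusted p = 0.101) were lost. Without the RM1-1 testis sample, which carried neuron genes, the count was 3 and the calls of Slc2a1, Slc38a1 and Slc6a8 were lost; without the RM2-1 testis sample it was 2, with the calls of Slc7a3, Slc2a3, Slc38a1 and Slc6a8 lost; and without the AdESC sample of MR1-1 or RM1-1 it was 3. Over 13 alternatives the adjusted p ran from 9.91e-05 to 0.0850 for Slc7a3 (lost in 1), 0.000721 to 0.0698 for Slc2a3 (lost in 1), 0.00845 to 0.0997 for Slc2a1 (lost in 2), 0.0180 to 0.101 for Slc38a1 (lost in 5) and 0.0324 to 0.180 for Slc6a8 (lost in 9). Between EBs and testis 0 of 32 members were called, with 5 at an unadjusted p below 0.05, beside 10 of 8218 genes called.

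Each differentiated sample was also set against the AdESC sample of its own line. This compares 1 sample with 1 sample and has no test; a member counts as past the fold when its log2 difference is at least 1 in size and it lies outside the range of all 4 AdESC samples. In EBs of MR2-1 11 of 34 members were higher and 9 lower, beside 19.8% and 16.1% of 8421 genes, and in EBs of RM1-1 5 were higher and 8 lower, beside 19.1% and 17.9%. In testis cells of RM1-1 5 were higher and 13 lower, beside 22.7% and 19.2%. In testis cells of RM2-1 6 were higher and 12 lower, beside 19.7% and 20.0%, and 7 and 9 with upper-quartile scaling. In fibroblasts of MR1-1 11 were higher and 7 lower, beside 20.9% and 20.1%, in neurons of RM1-1 6 and 9, beside 22.3% and 16.6%, and in lung cells of RM2-1 5 and 15, beside 21.3% and 28.5%. The members' median difference ran from -0.97 in lung cells, where all genes had a median of -0.18, to 0.46 in fibroblasts, where all genes had 0.00.

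**Figure D4:**
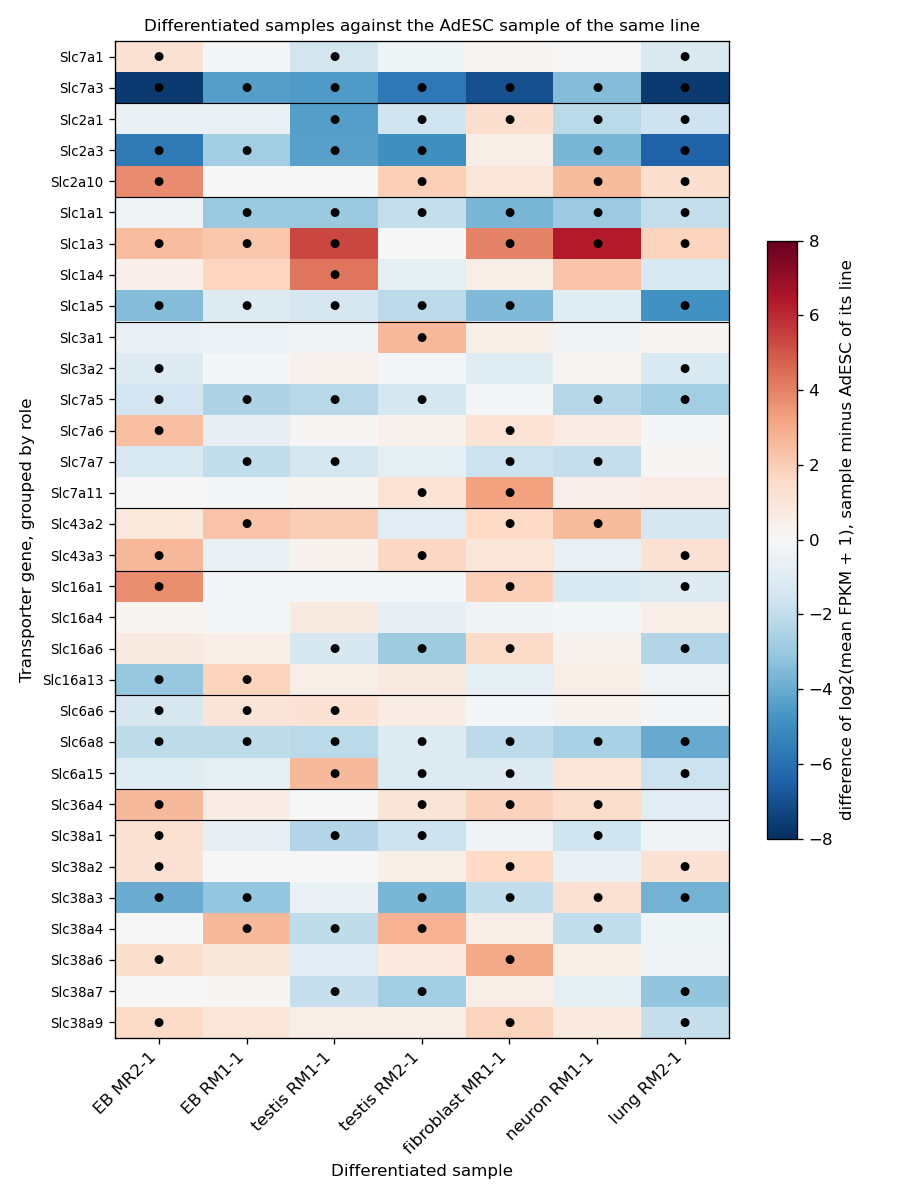
Difference of log2(mean FPKM + 1), sample minus the AdESC sample of its line, for 32 transporter genes grouped by role (y axis) in 7 differentiated samples (x axis); red is higher and blue lower in the differentiated sample, and a dot marks a member past the fold and outside the AdESC range. The Slc7a3 row is blue with a dot in all 7 samples, and the Slc1a3 row is red with a dot in 6.

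Some members went the same way in most samples. How many of all genes did so as often was not counted, so the counts below describe single members and do not set the members apart from other genes. Slc7a3 and Slc6a8 were lower past the fold in 7 of 7 samples, and Slc2a3, Slc1a5, Slc1a1 and Slc7a5 in 6 of 7. For Slc2a3 the exception was the fibroblast sample, at 66.6 FPKM against 46.8 FPKM in the AdESC sample of MR1-1. Slc38a3 was lower in 5 and higher in 1, the neurons, where it was 18.8 FPKM against 7.503 FPKM in AdESCs of RM1-1. The light chain Slc7a7 was lower in 4 samples and higher in none. Higher in 6 samples was Slc1a3. The amino acid transporter Slc36a4 and Slc2a10 were higher in 4 samples, and Slc38a2, Slc43a2 and Slc43a3 in 3. Slc1a3, Slc36a4, Slc2a10 and Slc43a2 were at 0 in at least 1 AdESC sample, so no fall of theirs could be counted. Slc1a3, Slc36a4, Slc2a10 and Slc43a3 averaged 0.938, 0.285, 0 and 0.959 FPKM in AdESC samples. They passed the filter of 1 FPKM through the differentiated samples.

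The largest rises differed from type to type. In neurons they included Slc1a3 (6.36 on the log2 scale), the leucine facilitator Slc43a2, at 4.84 FPKM and listed at 0 in AdESCs of RM1-1, and Slc2a10, at 4.84 FPKM. In the RM1-1 testis sample Slc1a3 rose by 5.33 on the log2 scale, the serine and alanine exchanger Slc1a4 by 4.31 and Slc6a15, a transporter of branched-chain amino acids and proline, by 2.56. Slc1a4 had 19.1 FPKM there against 0.0142 FPKM in AdESCs of RM1-1, with 3 of 4 cells at 1 FPKM or more. In the RM2-1 testis sample Slc38a4 had 69.1 FPKM against 9.35 FPKM in AdESCs of RM2-1 (2.76), and all 20 cells had 1 FPKM or more. There the heavy chain Slc3a1 (2.61) and Slc43a3 (1.64) were also past the fold.

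In EBs of MR2-1 the largest rises after Slc2a10 were Slc16a1 (3.72), Slc43a3 (2.68) and Slc36a4 (2.57). Slc16a1, the lactate and pyruvate transporter, had 112 FPKM in those EBs against 7.60 FPKM in AdESCs of MR2-1, with 11 of 12 cells at 1 FPKM or more. In EBs of RM1-1 it had 20.7 FPKM against 21.7 FPKM in AdESCs of RM1-1, so the 2 EB samples differed. The largest rises in EBs of RM1-1 were Slc38a4 (2.61), Slc1a3 (2.16), Slc16a13 (1.76) and Slc43a2, at 3.78 FPKM and listed at 0 in AdESCs of RM1-1. In fibroblasts they were Slc1a3 (3.97), the cystine and glutamate exchanger Slc7a11 (3.24), Slc38a6 (3.02) and Slc16a1 (1.90). Slc7a11 had 9.06 FPKM in fibroblasts against 0.0645 FPKM in AdESCs of MR1-1, and that mean rested on 2 of 10 cells, the highest at 70.0005 FPKM. Slc38a6 had 11.4 FPKM in fibroblasts. Slc7a11 and Slc38a6 averaged 0.0651 and 0.457 FPKM in AdESC samples, and both passed the filter of 1 FPKM only through the fibroblast sample. Slc16a1 had 93.3 FPKM against 24.2 FPKM in AdESCs of MR1-1, with 9 of 10 fibroblasts at 1 FPKM or more. In lung cells the rises included Slc1a3 (1.78), Slc2a10 and Slc43a3 (1.16).

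These comparisons share AdESC samples: those of EBs, testis cells and neurons of RM1-1 share 1, those of testis and lung cells of RM2-1 share another, and the range of all 4 enters each. Slc7a3 had the largest fall in 6 of the 7 samples, from -7.64 in EBs of MR2-1 to -4.39 in EBs of RM1-1, and in neurons it was -3.47, next to Slc2a3 at -3.65. Slc2a3 was among the 4 largest falls in every sample except fibroblasts, down to -6.47 in lung cells. Slc1a5 was among them in EBs of MR2-1 (-3.45), fibroblasts (-3.51) and lung cells (-4.82), and Slc6a8 in fibroblasts (-2.11), neurons (-2.60) and lung cells (-4.002). Slc2a1 was among them in the RM1-1 testis sample alone (-4.40), and Slc16a6 in the RM2-1 testis sample alone (-2.87). Slc38a3 was among them in both EB samples, where it was at 0, and in the RM2-1 testis sample (-3.69), and Slc1a1 in EBs and testis cells of RM1-1, fibroblasts and neurons, where it was at 0 or, in neurons, at 0.07 FPKM.

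The 7 other lists gave 3 higher and 9 lower of 62 tested in differentiated against AdESC samples, which is 4.84% and 14.5%, beside 7.37% and 8.57% of all genes. Of 11 glycolysis genes tested, 0 were higher and 4 lower, among them Pkm, a pyruvate kinase, at 534 ± 146.4 against 1619 ± 203 FPKM (-1.64 ± 0.22, adjusted p = 0.000138), and the hexokinase Hk2 (-1.47 ± 0.35, adjusted p = 0.0107). Asns was the 1 gene called of 10 in glutamine and asparagine use, at 112 ± 36.7 FPKM in differentiated and 706 ± 106 FPKM in AdESC samples (SD, n = 7 and 4; -2.70 ± 0.28, limma adjusted p = 1.15e-05). Of 10 serine, glycine and threonine genes 0 were higher and 2 lower, Tdh, which breaks down threonine, at 12.2 ± 20.8 against 339 ± 33.8 FPKM (-6.84 ± 1.08, adjusted p = 0.000548), and Shmt1 (-1.40 ± 0.40, adjusted p = 0.0277). Of 7 amino acid stress genes 1 was higher and 2 lower, Trib3 (-2.91 ± 0.69, adjusted p = 0.0105) and Chac1 (-2.40 ± 0.68, adjusted p = 0.0257). Of 7 cystine and glutathione genes 1 was higher, the peroxidase Gpx4 (1.02 ± 0.28, adjusted p = 0.0222), of 5 partner genes 1 was higher, Stom, listed at 0 in all AdESC samples, and of 12 mTORC1 genes 0 were called, with 3 at an unadjusted p below 0.05 in limma. Over the 7 lists, EBs gave 2 higher and 5 lower of 63 tested (3.17% and 7.94%, beside 2.77% and 3.87% of all genes). Testis samples gave 1 higher and 5 lower of 63 (1.59% and 7.94%, beside 6.19% and 6.12%). In the EB and testis comparisons, glycolysis gave 1 and 3 lower of 11, glutamine and asparagine use 1 and 1 lower of 10, which was Asns in both, and serine, glycine and threonine use 2 and 1 lower of 10, with Tdh in both. Cystine and glutathione genes gave 1 higher of 7 in each, Gpx4, partner genes 1 and 0 higher of 5, amino acid stress genes 1 and 0 lower of 8 and mTORC1 genes 0 and 0 of 12 (0 and 1 at an unadjusted p below 0.05 in limma). In testis samples 4 stress genes and 1 partner gene had an unadjusted p below 0.05.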

How the data were processed

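RNA was sequenced from 8 bulk ESC libraries and 87 single cells. The authors deposited FPKM values per gene, made with TopHat2 2.0.10 and Cufflinks 2.1.1 after FastQC 0.10.1 on the genome builds mm10 and rn5, per the submitters' processing notes. How both species' values were joined is not given in the sources used here. The 2 tables were normalized separately, read counts were not used and depth is unknown, so no counting interval can be given.

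From these values, log2(FPKM + 1) was tested with limma 3.58.1 (trend) in R 4.3.3, with Benjamini-Hochberg adjustment over all genes that averaged 1 FPKM or more, and a threshold of 0.05. The bulk fit held all 8 libraries in 3 groups. Single-cell samples entered as the mean FPKM of their cells: 7 differentiated and 4 AdESC samples in 1 fit, and EB, testis and AdESC samples in another. A single sample against the AdESC sample of its line was described by a fold of 2 and by lying outside the AdESC range.

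Pairing comes from the cell line in the labels: EB and testis samples share lines with AdESC samples. Their deviations from the group means correlated between -0.009 and 0.033. Log2 differences understate changes of low genes. The code was tested on simulated data.

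Members and lists were chosen with earlier results of these data known. Values are given for members called in a test, the 6 with the highest means in bulk and in single-cell AdESCs, the 4 largest rises and falls past the fold in each sample, members listed at 0 in 1 species with at least 10 FPKM in the other, and the highest member of each role. At most 2 genes of each other list are named by the size of their called change. Marker genes of other cell types and Asns and Tdh beside EB and testis samples were named to describe samples. All 78 symbols matched RefSeq gene names (GRCm38.p6), whose coordinates are printed, and no sequences are shown. Of the members that this rule names, 2 are not reported here. Alternatives were a pseudocount of 0.1, no filter, upper-quartile scaling, means of log2 values over cells, a replicate block by line, only the groups compared, RM and MR lines as separate groups, a fold of 4, and each sample left out.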

Additional observations from a re-analysis of the deposited data

Results flagged for a closer look

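In 10 of 88 groups of samples tested, which is 11.4%, 1 sample lay far from the others by Dixon's criterion on log2(FPKM + 1). Chance alone gives this in about 1 of 20 groups of normally distributed values that were not picked. Here the groups came from named members, some named for a large rise or fall in 1 sample, as Slc7a11 was for fibroblasts. The rate for members picked this way and for means over few cells was not tested, so the share is a description and no excess over chance is read from it. All 10 were single-cell samples, whose values are means over 4 to 20 cells.

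Among differentiated samples, 3 values belonged to lung cells of RM2-1. Slc6a8 was 0.0152 FPKM there and 2.93 to 7.11 FPKM in the other 6, Slc7a5 was 1.70 FPKM and 4.23 to 6.12 FPKM in the others, and the arginine sensor Slc38a9 was 0.123 FPKM and 4.58 to 8.28 FPKM in the others. The cystine transporter Slc7a11 was 9.06 FPKM in fibroblasts, from 2 of 10 cells, and at most 1.37 FPKM in the others. The lysosomal Slc36a1 was 3.67 FPKM in testis cells of RM1-1 and at most 0.111 FPKM in the others. The glutamate transporter Slc1a6 was 2.93 FPKM in testis cells of RM2-1 and at most 0.0350 FPKM in the others.

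Among AdESC samples, Slc1a4 was 4.02 FPKM in RM2-1, with 3 of 6 cells at 1 FPKM or more, and 0.0142 to 0.158 FPKM in the other 3 lines. Slc36a4 was 1.02 FPKM in RM2-1 and at most 0.0720 FPKM in the others. Slc38a2 was lowest in MR2-1 at 56.9 FPKM and 90.7 to 97.1 FPKM in the others. Slc43a1 was 5.61 FPKM in MR2-1 and at most 0.149 FPKM in the others.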

How the results depend on the processing

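Of 522 alternative values for the 40 calls named, 404 stayed past the threshold in the same direction, 118 no longer passed and 0 changed direction. Under every alternative run, 16 of the 40 calls stayed: 9 for rat against mouse ESCs (Slc1a1, Slc2a1, Slc2a3, Slc6a6, Slc7a9, Slc38a1, Slc38a3, Slc38a9, Slc43a1), Slc2a3 and Slc6a6 for AdESC against rat, Slc38a3 for AdESC against mouse, Slc2a3, Slc6a8 and Slc7a3 for differentiated against AdESC samples, and Slc7a3 for EBs. For rat against mouse, Slc7a9 was tested in 11 and Slc43a1 in 10 of 12 alternatives. Slc7a9 fell below the filter on low values without DA53, and Slc43a1 without F145 or F146, so their calls were not tried there. The Slc2a3 calls against rat lines keep the limit that a rat gene model may be lacking. Counts of members moved by over 1.5 times in 31 of 115 alternatives. With a pseudocount of 0.1, AdESC against rat lines gave 8 members in place of 5. AdESC against mouse lines gave 2 in place of 4 with no filter, 1 with only the groups compared and 2 with RM and MR lines as separate groups. EBs gave 2 in place of 4 with no filter. With the replicate block EBs gave 2 and testis samples 3 in place of 5, it lost no other named call, and differentiated samples gave 8 members in place of 7. A fold of 4 gave 12 members in EBs of MR2-1, 8 in testis cells of RM2-1, 7 in fibroblasts and 9 in lung cells, in place of 20, 18, 18 and 20. With 1 library or sample left out in turn, the counts ran from 9 to 17 for rat against mouse, 2 to 8 for AdESC against rat, 1 to 4 for AdESC against mouse, 4 to 7 for differentiated samples, 1 to 4 for EBs and 2 to 5 for testis. A lone sample left in an arm was assumed to vary like the other groups. The cause of these changes was not tested, beyond the smaller number of samples or genes that an alternative holds by construction. With 2 lines or samples in most arms, a member that missed the threshold is not shown to be alike in both groups. Means over 4 to 20 cells can rest on 1 or 2 cells, and FPKM without counts leaves the error of low values unknown.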
